A study of Mus musculus with 12 samples.

Results

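Described here are dense runs of called STAT5 regions in mouse embryonic fibroblasts that lack Stat5 and carry overexpressed STAT5A. Sites were chosen by the positions of regions in both lists of these cells. Regions of the 2 replicate lists that overlapped by at least 1 bp were merged, merged sites holding a region of each list were kept, and neighbouring sites on a chromosome were joined into a chain where the gap from the end of one to the start of the next was 12.5 kb or less. Of 30317 such shared sites, 3047 (10.1%) lay in the 496 chains of 5 or more sites and are the members. Another 14198 sites lay in chains of 2 to 4, and 13072 stood alone. Number, spacing and sharing between replicates thus define the members and are given as descriptions, and the wild-type list took no part in the choice.

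The series holds 12 chromatin immunoprecipitation and sequencing (ChIP-seq) libraries, of which 3 region lists were analysed here. Its IgG libraries and its STAT5 libraries of knockout cells were not compared, so how far the regions depend on STAT5 was not tested. The fibroblasts came from fetuses of 12.5 to 13.5 days on a C57BL/6 background and were used at passage 9 to 10. One list is from cells wild type for STAT5 (1 library), and the others are from STAT5A-Stat5-/- cells, that is, Stat5-null cells with STAT5A overexpression (replicate 1 and a repeat, replicate 2). Cells of all 3 libraries had gone without serum for 5 h and then received growth hormone (1 µg/ml, 45 min), and chromatin was precipitated with an antibody to STAT5. For replicate 2 the hormone rests on the track name of its list, which the labels attach to an unstimulated and a stimulated library. How STAT5A was expressed, and how many fetuses or clones the cultures came from, is not given in the sources used here, so the replicates may differ only technically. Replicate 1 had 71561 regions, replicate 2 had 71803, and wild type had 13278. They give positions on mouse build mm9 without a height, score or read count. The depth of each library is unknown, and with 1 wild-type library no test between genotypes was possible.

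STAT5A and STAT5B are transcription factors that wait in the cytoplasm until a receptor, such as that for growth hormone, activates the kinase JAK2. Once phosphorylated they pair, enter the nucleus and bind inverted repeats in which TTC is followed a few bases later by GAA, and adjacent pairs can join on neighbouring motifs. Sites of a transcription factor are known to crowd along some stretches of chromatin, and a gap of 12.5 kb is a customary limit for joining them into one unit. The sequence of mm9 was not used here, so the motifs in these chains are not described.

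Most chains were short. Chains of exactly 5 sites numbered 235, chains of 5 to 9 sites 469 with 2752 sites, and chains of 10 or more sites 27 with 295 sites. The longest held 15. Spans ran from 5.09 to 72.9 kb, with a median of 25.6 kb and quartiles of 19.9 and 32.8 kb. The median chain held 2.28 sites per 10 kb of its span, and the range was 1.20 to 9.82. All spans together came to 13.5 Mb, or 0.512% of the chromosomes that carry shared sites, and member sites covered 17.1% of that span. Into this length fell 4711 replicate 1 regions (6.58% of the list) and 3879 replicate 2 regions (5.40%). Of these, 3871 and 3111 made up the member sites, and the others had no counterpart in the other replicate.

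Chains built from a single list were far more numerous. Replicate 1 regions alone formed 3415 chains of 5 or more and replicate 2 regions alone formed 3049. These chains consist of single regions, not of merged sites.

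**Figure D1:**
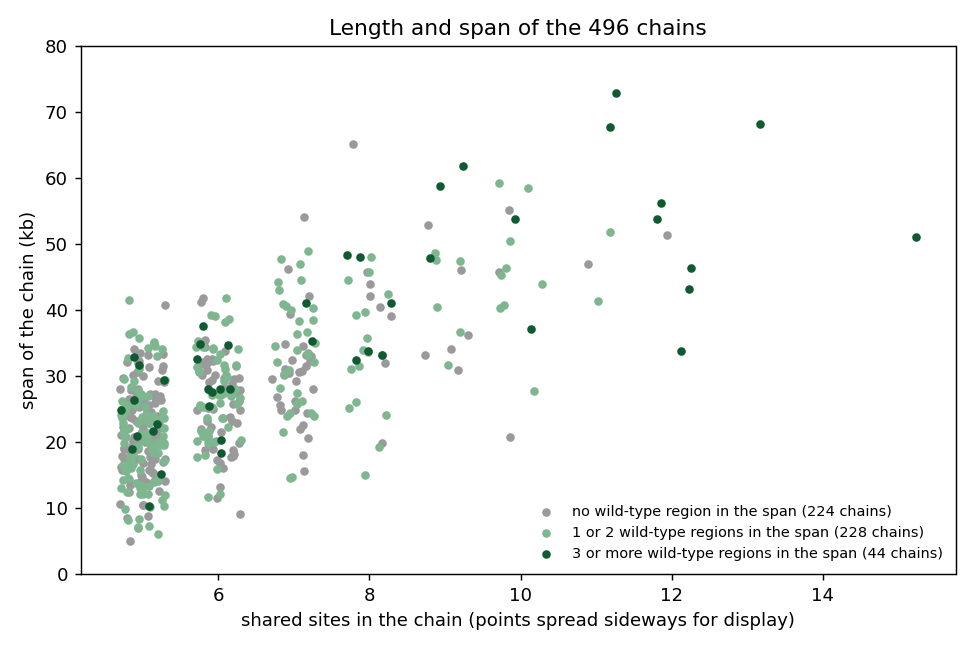
Number of shared sites (x axis, points spread sideways) and span in kb (y axis) of each of the 496 chains, coloured by the number of wild-type regions in the span. Most chains hold 5 to 7 sites and span 10 to 50 kb; 44 chains hold 3 or more wild-type regions, 228 hold 1 or 2, and 224 hold none.

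The limits of the definition passed through dense parts of the distribution. There were 553 chains of 4 sites, just outside, with a median span of 16.5 kb, and 235 of 5 sites, just inside, with a median of 21.1 kb. Neighbouring member sites were separated by a median of 3602 bp (quartiles 1262.5 and 6963.5 bp, over 2551 gaps). Gaps under 2 kb made up 34.0% of them. Near the upper limit, 46 gaps within 45 chains were over 12 kb, and 14 gaps beside a chain were over 12.5 and up to 13 kb. Gaps of 1 kb or less made up 21.7%, and whether such neighbours are pieces of one broad signal was not tested. With sites 1 kb or less apart counted as 1, a setting chosen after seeing the data, 311 chains with 1816 sites remained. Replicate 1 had several regions in a site more often than replicate 2 did. More than 1 replicate 1 region fell in 700 member sites (23.0%), and more than 1 replicate 2 region in 64 (2.10%). In the other shared sites these shares were 19.5% and 2.07%.

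The chain with the most sites lay on chromosome 6, at 52166697 to 52217793. It spanned 51.1 kb and held 15 shared sites, and its span contained 28 regions of replicate 1, 20 of replicate 2 and 3 of wild type. This stretch belongs to the HoxA cluster, whose genes encode homeobox transcription factors that set position along the body and limb axes. The gene names given for this and 3 further chains come from general knowledge of the mouse map and were added after the chains had been ranked. No annotation of mm9 was used here to check them. The largest gap between neighbouring sites of this chain was 9142 bp, where the rule allows up to 12.5 kb. The widest site, at 52198893 to 52200420, was 1528 bp wide, and its widest regions were 879 bp in replicate 1 and 846 bp in replicate 2. No wild-type region lay on it. Wild-type regions of 378 and 498 bp lay on the second and the sixth site of the chain, and one of 598 bp, at 52211713 to 52212310, fell between shared sites.

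A chain on chromosome 10 at 24284034 to 24330350 held the widest of all member sites. The stretch contains Ctgf, also called Ccn2, which encodes a secreted matrix-associated protein of fibroblasts. Here 12 sites spread over 46.3 kb, with 31 regions of replicate 1, 14 of replicate 2 and 6 of wild type. The widest member site, at 24314353 to 24318681, was 4329 bp wide and was made of 6 replicate 1 regions, none over 1059 bp, and 2 replicate 2 regions, the wider of them 3041 bp. On this site lay 4 of the 6 wild-type regions, and each of the other 2 lay on a site of its own. The lists thus differed in how they cut this stretch, and all 3 had regions on it.

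On chromosome 11, the chain at 117823376 to 117857210 was the third densest of the chains with 10 or more sites. It packed 12 sites into 33.8 kb, or 3.55 sites per 10 kb, and 39.8% of its span lay in sites. Socs3, a STAT-induced gene whose product inhibits cytokine receptor signalling, lies in this stretch. The chain held 22 regions of replicate 1, 17 of replicate 2 and 3 of wild type. Wild-type regions of 508 and 498 bp lay on the fourth site, at 117829755 to 117831580, which was 1826 bp wide, and one of 219 bp lay on the second site, which at 1938 bp was the widest. The remaining 10 sites, 8 of which formed the far end of the chain, had no wild-type region.

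Of the 10 chains with the most sites, 9 had a wild-type region in the span, with 3 to 6 regions each. Such a region lay in the span of 22 of all 27 chains of 10 or more sites (81.5%), and of 54.8% of all 496 chains. Of all shared sites, 9.81% were overlapped by wild type. In the chain on chromosome 5 at 151952050 to 152005841, 5 of 12 sites were overlapped by wild type, and in that on chromosome 12 at 70511381 to 70579090, 5 of 11 were. All 5 wild-type regions of each chain lay on shared sites. In the chain on chromosome 7 at 89531252 to 89599400, with 13 sites, all 3 wild-type regions lay on shared sites too. The chain on chromosome 10 at 120102283 to 120158450 held 12 sites and 4 wild-type regions, of which 2 lay on shared sites. The same numbers were found for the chain on chromosome 2 at 50267174 to 50310370. The longest span, 72.9 kb, was that of a chain of 11 sites on chromosome 7 at 116707423 to 116780321. It held 20 regions of replicate 1, 17 of replicate 2 and 4 of wild type.

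**Figure D2:**
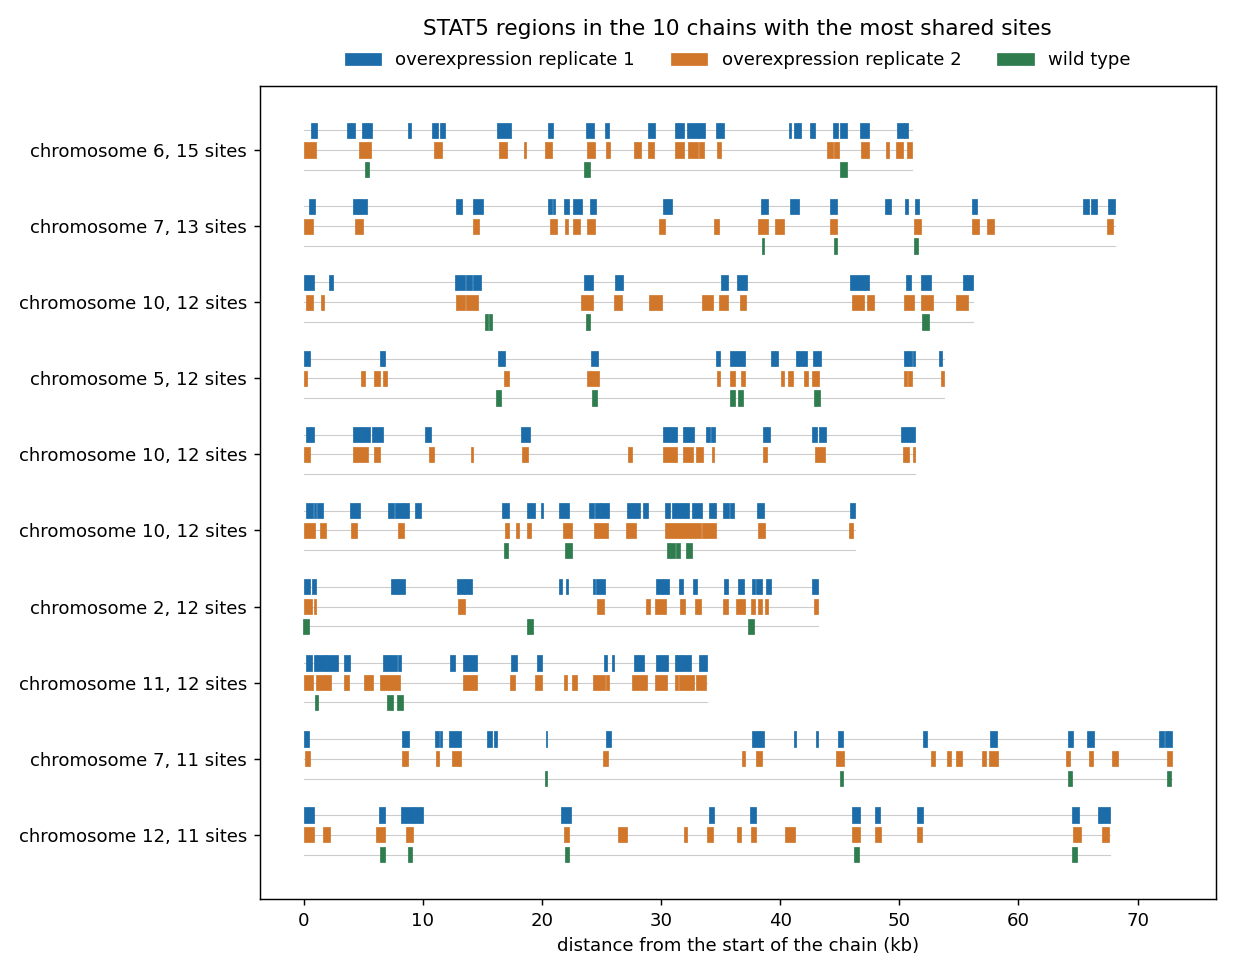
Regions of replicate 1, replicate 2 and wild type in the 10 chains with the most shared sites, each drawn to scale from its start (x axis, kb), with the chromosome and number of sites at left. Regions of both replicates run along every chain, as the choice of chains requires, with 15 sites in the first and 11 in the last. Wild-type regions number 3 to 6 except in the fifth chain, which has none.

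Chains without any wild-type region included long ones. The chain on chromosome 10 at 94575079 to 94626419 held 12 sites in 51.3 kb, with 18 regions in replicate 1 and 15 in replicate 2. A chain of 11 sites on chromosome 2 at 139887043 to 139934010 had 15 and 12 regions, and a chain of 10 sites on chromosome 18 at 68136510 to 68191733 had 17 and 12. The densest chain of at least 10 sites, on chromosome 13 at 63336030 to 63356741, held 4.83 sites per 10 kb, 15 and 10 regions in the replicates, and no wild-type region. The second densest, on chromosome 18 at 75523273 to 75550981, held 3.61 sites per 10 kb and 1 wild-type region, which lay on none of its sites.

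The chains richest in wild-type regions were mostly not the longest. On chromosome 10 at 39332470 to 39380787, 8 shared sites were accompanied by 7 wild-type regions, 5 of them on shared sites. The others, each with 6 wild-type regions, were the Ctgf chain and chains of 5 sites on chromosome 13 at 51941593 to 51964349, on chromosome 2 at 173081747 to 173100744 and on chromosome 13 at 5859603 to 5869900. The last of these is the stretch of Klf6, a zinc finger transcription factor gene that responds early to many stimuli. In its 10.3 kb lay 11 regions of replicate 1, 6 of replicate 2 and 6 of wild type, and 4 of its 5 sites were overlapped by wild type. In the chain at 51941593 on the same chromosome, by contrast, only 2 of the 6 wild-type regions lay on shared sites.

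Wild-type regions were then counted over all chains. At least 1 lay in the span of 272 of the 496 chains (54.8%, 95% exact binomial interval 50.3 to 59.3%), and on a member site in 233 (47.0%, interval 42.5 to 51.5%). Among all 6346 chains of 2 or more sites, 27.3% had a wild-type region in the span. The share followed the length of the chain: 24.96% (interval 23.9 to 26.1%) for 2 to 4 sites, 53.3% (interval 48.7 to 57.9%) for 5 to 9 sites and 81.5% (interval 61.9 to 93.7%) for 10 or more. Longer chains have both longer spans and more sites, and what the rise follows from was not tested. Per length of span no order between the classes was seen. Spans of 2 to 4 sites held 37.9 wild-type regions per Mb (95% exact Poisson interval 36.2 to 39.7), spans of 5 to 9 sites 33.5 (interval 30.3 to 36.9) and spans of 10 or more sites 45.8 (interval 35.0 to 59.0), over 60 regions, and each pair of intervals overlapped. Intervals here and below cover counting error only.

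Of single member sites, 344 of 3047 (11.3%, interval 10.2 to 12.5%) were overlapped by a wild-type region, where 9.81% of all shared sites were. By chain length the share was 9.40% (interval 8.91 to 9.92%) for sites standing alone, 9.88% (9.39 to 10.4%) in chains of 2 to 4, 10.9% (9.80 to 12.2%) in chains of 5 to 9 and 14.6% (10.8 to 19.1%) in chains of 10 or more, where it rests on 43 sites. Sites of 1 chain share a neighbourhood and are not independent, so these intervals are too narrow. With chains built from replicate 1 or replicate 2 regions alone, 7.21% and 6.47% of the chained regions were overlapped. Single regions are narrower than merged sites, with medians of 398 and 404 bp.

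Member sites were wider than others by the median, and wider sites were more often overlapped. Widths come from the 2 lists that chose the members. An overlap counted from 1 bp, which by itself favours wider sites, and how much of the trend this makes was not tested. The median width was 695 bp (quartiles 538 and 908 bp) for member sites, 652.5 bp in chains of 2 to 4 and 620 bp for single sites, and 18.0%, 13.3% and 9.53% of sites were over 1000 bp. The regions within them followed the same order in each list. Median widths were 478, 468 and 448 bp in replicate 1 and 524, 481 and 444 bp in replicate 2. The wild-type share was then taken within classes of width. In member sites against other shared sites it was 4.65% (interval 3.11 to 6.65%) against 4.47% for sites of 500 bp or less, and 7.001% (5.47 to 8.81%) against 7.85% for those over 500 and up to 700 bp. For sites over 700 and up to 1000 bp it was 13.2% (11.1 to 15.5%) against 12.4%, and for sites over 1000 bp 22.9% (19.4 to 26.6%) against 19.9% (18.5 to 21.3%). In each class the intervals overlapped, and the difference itself was not tested. In chains of 10 or more alone, the share for sites over 500 and up to 700 bp was 12.6% (6.48 to 21.5%), over 11 sites.

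**Figure D3:**
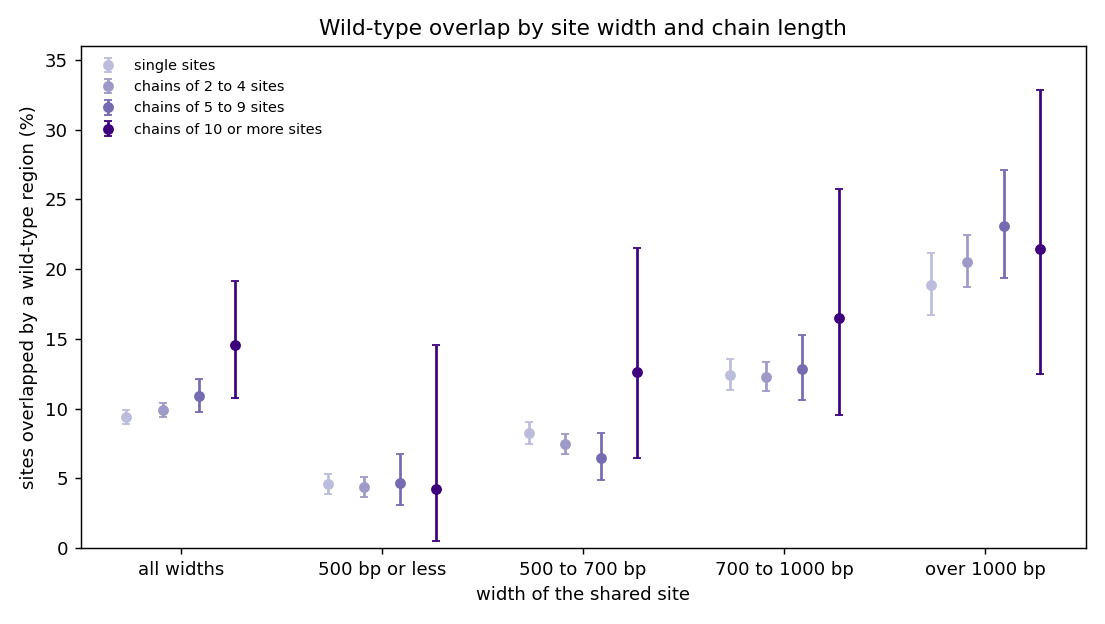
Share of shared sites overlapped by a wild-type region (y axis, %) by width of the site (x axis) and by chain length (colours); bars are 95% exact binomial intervals. The share climbs with width, from 4.7% to 23.1% in chains of 5 to 9 sites and from 4.3% to 21.4% in chains of 10 or more sites. Within a width class the intervals of the chain lengths overlap.

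The same was seen inside chains. The widest site of a chain was overlapped by wild type in 104 of 496 chains (21.0%, interval 17.5 to 24.8%), the second widest in 13.5% and the narrowest in 26 (5.24%, interval 3.45 to 7.59%). Median widths of these sites were 1102, 869.5 and 442 bp. Of the 155 chains with exactly 1 overlapped site, that site was the widest in 60. For comparison, 496 of the 3047 member sites were the widest of their chain. In 78 chains 2 to 5 sites were overlapped. Position along the chain went with a smaller difference. First and last sites were overlapped in 9.17% (interval 7.45 to 11.1%) and inner sites in 12.3% (interval 10.9 to 13.8%), with median widths of 691 and 698 bp.

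Seen from wild type, 468 regions (3.52% of the list) lay in chain spans, and 361 of these (77.1%) were on a member site. A further 38 (8.12%) were on a region of only 1 replicate, and 69 (14.7%) were on no region of the overexpressing cells. Outside the chains 22.2% of wild-type regions were on a shared site and 62.7% on no overexpression region. Chains were chosen for dense overexpression regions, which by itself raises the share on a site. Where wild-type regions lay on member sites, their summits were a median of 70 bp (quartiles 30 and 130 bp, n = 361) from the nearest replicate 1 summit. On other shared sites the median was also 70 bp (quartiles 30 and 140 bp, n = 2838). The repeat has no summits.

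The surroundings of the chains were also dense in regions. Wild-type regions on no shared site had a density of 9.58 per Mb between the sites of a chain (95% exact Poisson interval 7.85 to 11.6, 107 regions). It was 7.86 per Mb (6.37 to 9.58) within 12.5 kb outside the chain, 6.67 (5.91 to 7.495) at 50 to 100 kb and 5.28 (4.79 to 5.81) at 100 to 200 kb. The chromosomes together had 3.82, a mean not weighted by where the chains lay. Wild-type regions of any kind numbered 12.9 per Mb on chromosome 10, with 40 chains, and 0.901 on chromosome X, with 3 chains. The densities around chains were not recomputed without chromosome 10. Chains of 2 to 4 sites had 8.41 per Mb between their sites (7.52 to 9.38) and 6.75 within 12.5 kb (6.33 to 7.19). These intervals overlap those of the longer chains. Farther out, chains of 2 to 4 sites had 4.925 (4.67 to 5.19) at 50 to 100 kb and 4.28 (4.07 to 4.49) at 100 to 200 kb. There the intervals lay below those of the longer chains. Single sites had 5.79 within 12.5 kb. The shared sites themselves and the spans of all chains were left out of these zones. Regions found in only 1 overexpression replicate showed a steeper gradient. They come from the 2 lists that chose the chains, so their gradient is not independent of that choice. The wild-type list took no part in the choice, but leaving out its regions on shared sites used those 2 lists. Of the wild-type regions kept in chain spans, 38 were on a region of only 1 replicate and 69 on none. Its gradient is therefore not fully independent either. In replicate 1 their density fell from 75.2 per Mb between the sites of a chain to 39.5 within 12.5 kb and 21.0 at 100 to 200 kb, and in replicate 2 from 68.8 to 52.9 and 27.8. Around chains of 2 to 4 sites both densities fell as well. Between the first 2 of these zones they went from 62.4 to 33.7 per Mb in replicate 1 and from 53.5 to 39.99 per Mb in replicate 2. A dense surrounding was thus not particular to chains of 5 or more, around which these densities were higher. The means over the chromosomes were 13.04 and 15.49 per Mb. Within chains 82.2% of replicate 1 regions and 80.2% of replicate 2 regions were matched in the other list, against 49.8% and 41.0% elsewhere. Chains were built from matched sites only, which by itself raises the share within them, and no difference beyond that was tested.

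**Figure D4:**
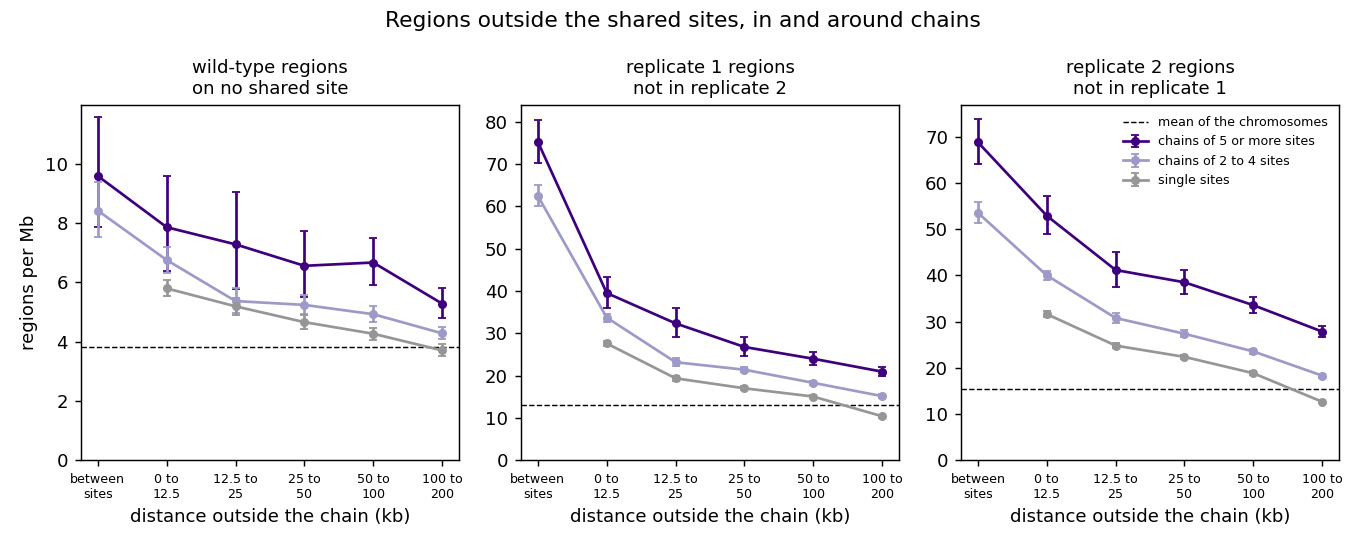
Density (regions per Mb) of wild-type regions on no shared site and of regions in only 1 overexpression replicate, between the sites of a chain and at distances outside it (x axis, kb), for chains of 5 or more, chains of 2 to 4 and single sites; bars are 95% exact Poisson intervals. Around chains of 5 or more each density is highest between the sites and lowest at 100 to 200 kb, for wild type 9.58 and 5.28 per Mb, where it is still above the mean of 3.82 per Mb (dashed line). The mean is over all chromosomes and is not weighted by where the chains lie.

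Chains were found on all 19 autosomes and rarely on chromosome X. Chromosome 10 had 40 chains, or 30.8 per 100 Mb, the highest density. Among the remaining autosomes chromosome 16 was lowest, at 13.2, and chromosome 12 highest, at 27.2, and chromosome X had 3 chains, or 1.80 per 100 Mb. Counted as a share of the shared sites of the chromosome, 11.9% of those on chromosome 10 were members, within the range of the other autosomes, from 6.99% on chromosome 16 to 14.5% on chromosome 12. On chromosome X 2.54% were. Wild-type regions of any kind numbered 12.9 per Mb of chromosome 10 and between 3.17 and 5.74 per Mb elsewhere among the autosomes. In chain spans the density on chromosome 10 was 53.6 per Mb over 66 regions, exceeded only by 57.0 on chromosome 17 (24 regions). The autosomes other than 10 had a median of 32.7, and the lowest was 16.8 on chromosome 14 (14 regions). A wild-type region lay in the span of 70.0% of the chromosome 10 chains. Among the other autosomes the median of this share was 55.8% and the range 36.7 to 71.4%. Without chromosome 10, 53.5% of 456 chains had a wild-type region in the span.

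**Figure D5:**
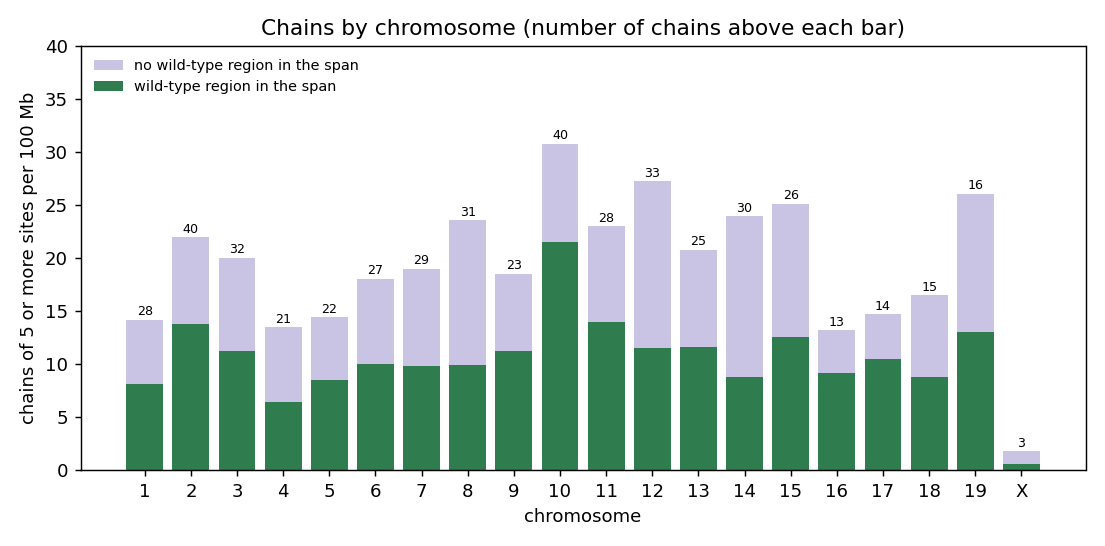
Chains of 5 or more sites per 100 Mb (y axis) on each chromosome, divided into chains with (green) and without (pale) a wild-type region in the span; the number of chains stands above each bar. Chromosome 10 is highest at 30.8 per 100 Mb and chromosome X lowest at 1.80.

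Chains mostly stood apart from each other. The median distance to the nearest other chain was 999 kb, and 77 chains (15.5%) had another within 100 kb, in 37 groups. Only 3 groups held 3 chains. They lay on chromosome 9 at 102528023 to 102687091, with 19 sites and 3 wild-type regions in the chains, on chromosome 15 at 61950363 to 62103370, with 17 sites and 2 wild-type regions, and on chromosome 8 at 114061985 to 114272490, with 16 sites and no wild-type region. These groups were singled out after their values were seen. Positions follow mm9, with the first base of a chromosome as 1.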

How the data were processed

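The authors deposited called STAT5 regions as start, end and, for wild type and replicate 1, summit positions on mm9, per the file headers. Region names of replicate 2 begin with MACS. Aligner, control and cutoff: not given in the sources used here. Replicate 2's list is attached in the labels to an unstimulated and a stimulated library of the repeat, and it was taken as the stimulated one from its track name. Positions were read as BED intervals, and a wild-type region counted from 1 bp of overlap. Shares have 95% Clopper-Pearson intervals and densities exact Poisson intervals. No test was run, since 1 wild-type library and lists without scores allow none. Chromosome lengths are the end of the last region in any list. Chains named with positions were the 10 with most sites, the 5 with most wild-type regions, the 3 longest without one, the 3 densest of 10 or more sites and that with the widest site. The members and these rules were chosen with earlier results of these data known. Gene and promoter tables at hand are of GRCm38 and were not used. Merging and chaining were tested on simulated data, and site and overlap counts matched bedtools 2.31.1. Calculations used scipy 1.17.1, pandas 2.3.3 and numpy 2.4.6 under Python 3.11.15, and plots matplotlib 3.10.9.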

Additional observations from a re-analysis of the deposited data

How the results depend on the processing

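The number of chains and of their sites is set by the definition, and the wild-type shares moved less. From 496 chains with 3047 sites, a gap limit divided by 2 gave 163 with 924 and one of 25 kb gave 1180 with 8094. A minimum of 4 sites gave 1049 chains with 5259 and of 8 sites 73 with 678. A reciprocal overlap of at least 50% gave 234 with 1362, and sites 1 kb or less apart counted as 1, added after seeing the data, gave 311 with 1816. Without one of the replicates there were 3049 to 3415 chains with 21759 to 24726 regions of the other. The share of chains with a wild-type region, 54.8%, was 60.7% with the 25 kb gap, 47.7% from 4 sites, 72.6% from 8 sites and 39.8 to 43.6% without a replicate. The share of member sites overlapped, 11.3%, was 14.01% from 8 sites and 6.47 to 7.21% without a replicate. The median site width, 695 bp, was 729 bp from 8 sites, 737 bp with near sites counted as 1 and 398 to 404 bp without a replicate, where single regions are not merged. Of 47 alternative values 19 stayed within 1.5 times (numbers), the interval (shares) or the spread between replicates (width), among them all those without chromosome 10 or with on-grid wild-type regions (edges on a 10 bp grid). A wider gap and a lower minimum can only add sites to the chains, by construction. Why the shares moved was not tested. No paired analysis was possible because no test was run and wild type has 1 library. Depth is unknown for every library.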
